A study of Mus musculus with 6 samples.

Results

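The genes of the desmosome, the junction that rivets epithelial cells to each other, were examined in mammary tumors of BK5.ATF3 mice and in the normal glands beside them. The 10 genes encode 3 desmocollins (*Dsc1*, *Dsc2*, *Dsc3*), 3 desmogleins (*Dsg1a*, *Dsg2*, *Dsg3*), 2 plakophilins (*Pkp1*, *Pkp3*), desmoplakin (*Dsp*) and plakoglobin (*Jup*), and all 10 were among the 15280 genes of the expression table. The 10 were chosen by gene family, with their tumor and gland levels in these libraries already known. Their tumor-to-gland differences are therefore a description and carry no *p*-value. *Dsg1b*, *Dsg1c*, *Dsg4* and *Pkp2*, of the same families, are outside the 10 and are treated below among further desmosome genes.

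RNA-Seq libraries came from 3 parous transgenic females, with 1 tumor (T11035, T11640, T9232) and 1 adjacent normal gland (M11035, M11640, M9232) from each mouse, and a mouse is named here by its tumor. In the BK5.ATF3 mouse, ATF3, a stress-responsive transcription factor, is expressed from the bovine keratin 5 promoter, which is active in basal epithelial cells. The females had raised a litter, tumors formed at an age of 6 to 12 months, and a mouse was sacrificed once its tumor was 1.5 cm long. Tumor and gland carried the same transgene, so no library came from a mouse without it, and the comparison asks how the tumor differed from transgenic tissue.

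Desmosomal cadherins, the desmocollins and desmogleins, span the membrane and bind those of the neighboring cell. Inside the cell their tails bind plakoglobin and plakophilins, which in turn bind desmoplakin, and desmoplakin holds the keratin filaments. Simple epithelia use mainly desmoglein 2 and desmocollin 2, whereas stratified epithelia add the other cadherins layer by layer. Desmoglein 3 and desmocollin 3 lie toward the base and desmoglein 1 and desmocollin 1 toward the surface.

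Each library held between 4750989 and 7806908 fragments on genes, so that 3 fragments, the limit that a count of 0 allows, correspond to 0.393 to 0.610 CPM (fragments scaled by the effective library size). All 3 glands, labelled normal mammary gland, expressed casein and fat cell genes. Summed CPM of 10 fat cell markers ran from 4164 to 8154 in the glands and from 151 to 215 in the tumors, and that of 11 epithelial markers from 242 to 522 and from 877 to 1248. In bulk tissue, fewer cells of a type and less RNA per cell cannot be told apart. The part of this difference in tissue makeup in the results for the desmosomal genes was not tested. Ratios to an epithelial gene are given below as a description, and they depend on the gene chosen.

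Promoter sequence from RefSeq was matched for 2 of the 10 genes, desmoplakin and plakoglobin, which encode the plaque proteins every desmosome needs. These 2 are shown because only they had a matched sequence. The 250 bases before the annotated start of each are given 5′ to 3′ on the strand of the gene (GRCm38.p6), in lower case. GC boxes (GGGCGG on either strand, printed as GGGCGG or CCGCCC) are in capitals.
Dsp, chr13:38151044-38151293, plus strand: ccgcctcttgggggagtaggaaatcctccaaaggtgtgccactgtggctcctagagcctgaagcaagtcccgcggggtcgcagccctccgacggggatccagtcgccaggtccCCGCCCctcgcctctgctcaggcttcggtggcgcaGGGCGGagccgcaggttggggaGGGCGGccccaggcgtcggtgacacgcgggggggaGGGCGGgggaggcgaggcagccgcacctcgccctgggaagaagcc
Jup, chr11:100397791-100398040, minus strand: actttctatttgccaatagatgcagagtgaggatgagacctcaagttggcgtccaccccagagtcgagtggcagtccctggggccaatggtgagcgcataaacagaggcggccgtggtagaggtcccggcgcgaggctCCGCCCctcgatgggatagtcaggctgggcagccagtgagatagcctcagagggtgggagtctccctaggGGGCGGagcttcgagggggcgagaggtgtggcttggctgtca
The desmoplakin window was 72.4% G and C and held 4 GC boxes, starting at positions -137, -102, -80 and -45 from the gene start. The plakoglobin window was 62% G and C and held 2, at -112 and -42. A GC box was present in 32.7% of the 32851 mouse promoter windows of this length. A search of both strands for the E-box CAGGTG (in 17.2% of all windows), the AP-1 motif TGANTCA (6.75%) and the grainyhead motif AACCGGTT (0.116%) found none of these letters in either window.

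Desmosomal genes were far higher in the tumors than in the glands of the same mice, with *Dsg2* and *Dsc3* set apart. The sum over the 10 genes was 167, 124 and 209.8 CPM in glands M11035, M11640 and M9232 and 3251, 5034 and 4040 CPM in tumors T11035, T11640 and T9232. The median log2 difference (tumor minus gland, on log2(CPM + 0.5)) was 4.90 over the 10 genes and -0.0028 over all 15280 genes. Within the mice it was 4.42 in mouse T11035, 5.29 in mouse T11640 and 4.92 in mouse T9232.

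Differentially expressed genes (DEGs) were those with FC ≥ 2 and an adjusted *p* ≤ 0.05 in limma. Of all genes, 28.2% were DEGs, 14.5% upregulated and 13.7% downregulated. Among the 10 desmosomal genes 8 were upregulated and 0 downregulated, a count fixed in part by how they were chosen. The same 8 had all 3 tumors above all 3 glands, as did 27.6% of all genes, and *Dsc3* and *Dsg2* were the 2 whose groups overlapped. All 10 genes exceeded 3 fragments in every tumor, and 8 did so in every gland, the exceptions being *Dsc1* and *Dsg3* in gland M11640.

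**Figure D1:**
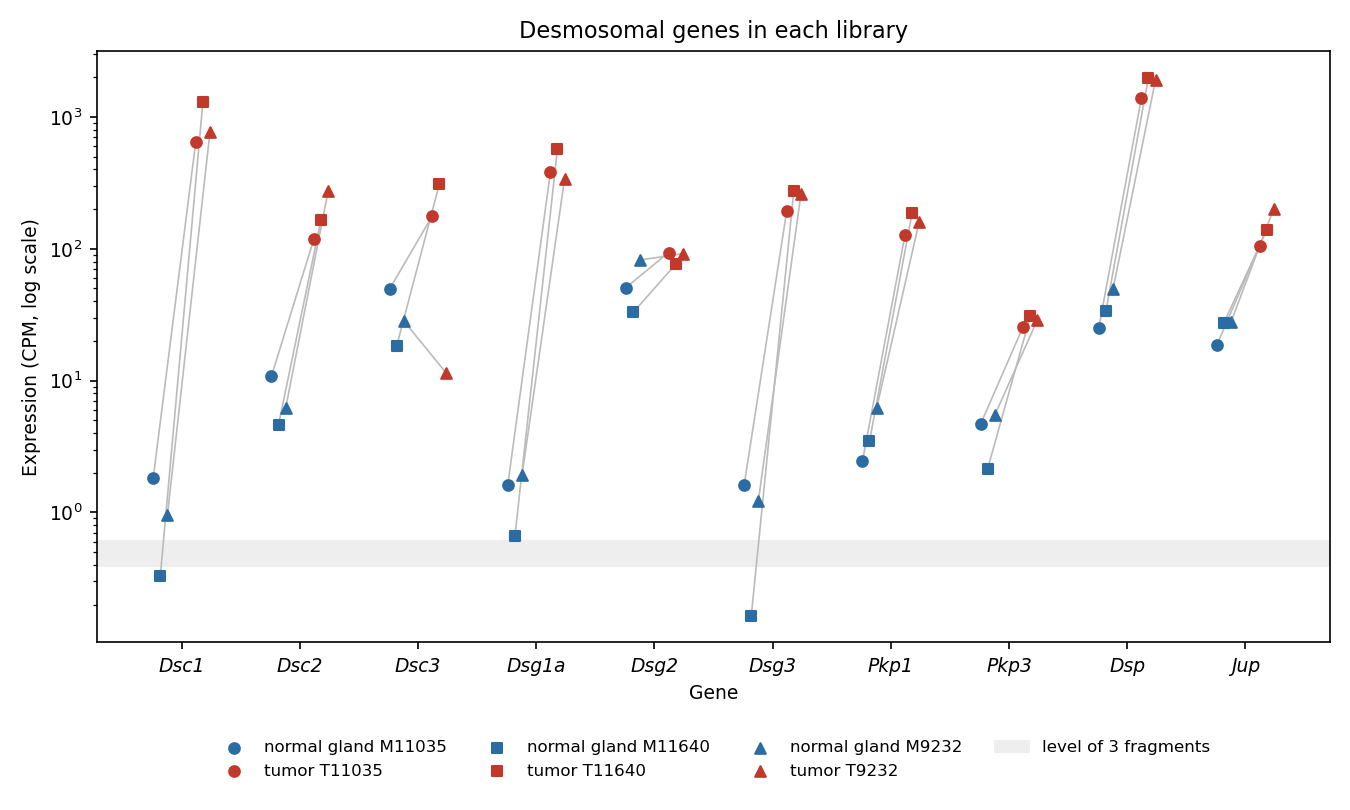
Level of each desmosomal gene in each library (CPM, log axis), with glands in blue, tumors in red, 1 symbol shape per mouse and lines joining the tissues of a mouse. Tumors sit above glands for every gene but *Dsc3*, where tumor T9232 (11.4 CPM) is below all glands, and *Dsg2*, where glands and tumors overlap, and the gray band marks 3 fragments.

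Desmocollins differed from each other both in size and in direction among the tumors. *Dsc1* (mm9 chromosome 18, 20243204 to 20273274, minus strand), the desmocollin of the uppermost living layers of epidermis, was almost absent from the glands, at 1.83, 0.330 and 0.958 CPM, and stood at 648, 1292 and 770.4 CPM in the tumors. No other of the 10 genes differed as much, with a log2 difference of 9.26 ± 0.39 (SE, n = 3 per group) that runs from 8.12 in mouse T11035 to 10.60 in mouse T11640. The gland levels rest on 9, 2 and 7 fragments, 18 in all, against 18483 in the tumors.

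*Dsc2* (chromosome 18, 20189134 to 20218055, minus strand), the desmocollin found in nearly all epithelia, was measured at 10.8, 4.62 and 6.16 CPM in the glands and at 119, 167 and 274 CPM in the tumors. Every tumor exceeded every gland, and the log2 difference was 4.60 ± 0.36 (SE, n = 3). Tumor T9232 was the highest for this gene, 2.29 times the lowest.

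*Dsc3* (chromosome 18, 20119431 to 20160598, minus strand), the desmocollin of basal cells of stratified epithelia, was the gene on which the tumors disagreed. Glands had 49.6, 18.3 and 28.3 CPM, tumors T11035 and T11640 had 177 and 308 CPM, and tumor T9232 had 11.4 CPM. The first pair of tumors lay above all glands and the last below all glands, so that the log2 difference was 1.82 and 4.03 in mice T11035 and T11640 and -1.28 in mouse T9232. The mean difference of 1.53 ± 1.04 (SE, n = 3) did not meet the DEG thresholds, and it moved with each tumor left out, to 2.96, which met them, without T9232, to 1.01 without T11035 and to 0.61 without T11640. On recovered fragments edgeR and DESeq2 gave 2.37 and 2.38, and neither called the gene. The *Dsc3* level of T9232 rests on 76 fragments, against 950 and 2349 in the other tumors and 244, 111 and 207 in the glands.

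The spread of *Dsc3* among tumors was far wider than that of its relatives. Its highest tumor was 27.0 times its lowest, whereas for the other desmosomal genes this ratio ran from 1.19 (*Pkp3*) to 2.29 (*Dsc2*). The SD of log2(CPM + 0.5) over the tumors was 2.51 for *Dsc3*, and 0.13 to 0.60 for the others. In the glands *Dsc3* was not unusual, with an SD of 0.71 beside 0.32 to 0.89 for the others.

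A search made after these values were seen placed the low *Dsc3* of T9232 among all genes. Of the 3774 genes with at least 50 CPM in both other tumors, *Dsc3* ranked 1st by how far T9232 fell below the lower of the other tumors, 15.5-fold in CPM and 3.90 on the log2 scale. It was the only gene at least 8-fold lower, and the median over these genes was -0.09. When T11035 or T11640 was set against the other tumors in the same way, over 3887 and 3663 genes, 0 genes were 8-fold lower. Which exons the remaining fragments came from was not analysed here, since the table gives 1 value per gene.

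Desmogleins fell into a pair of patterns. *Dsg1a* (chromosome 18, 20469312 to 20501851, plus strand), a desmoglein of differentiated layers and the target of autoantibodies in pemphigus foliaceus, had 1.63, 0.661 and 1.92 CPM in the glands and 379, 574 and 338 CPM in the tumors. *Dsg3* (chromosome 18, 20668805 to 20705360, plus strand), the desmoglein of lower epidermal layers and oral mucosa and the target in pemphigus vulgaris, had 1.63, 0.165 and 1.23 CPM in the glands and 194, 276 and 260 CPM in the tumors. Groups did not overlap for either gene, and the log2 differences were 7.85 ± 0.31 and 7.48 ± 0.40 (SE, n = 3). Mouse T11640 had the largest difference for both, 8.95 and 8.70, with the lowest gland level and the highest tumor level.

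*Dsg1a* shares sequence with its tandem copies *Dsg1b* (98.3% identity over 1795 bases of transcript) and *Dsg1c* (94.5% over 1752). Fragments that match several copies could have been left out or assigned to another copy, so the level of each copy is uncertain. Exons of none of the 10 genes overlap those of another gene in the table.

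*Dsg2* (chromosome 18, 20716575 to 20763022, plus strand), the desmoglein of simple epithelia, was already abundant in the glands, at 50.8, 32.9 and 82.2 CPM, and had 93.6, 76.3 and 91.9 CPM in the tumors. Gland M9232 exceeded tumor T11640, and the log2 difference of 0.75 ± 0.30 (SE, n = 3) did not meet the DEG thresholds. It was 0.87 in mouse T11035, 1.20 in mouse T11640 and 0.16 in mouse T9232. The call rested on the glands, since the difference was 1.08 and met the thresholds without gland M9232 and was 0.42 without gland M11640. Summed epithelial markers were 242, 299 and 522 CPM in glands M11035, M11640 and M9232, and their part in the *Dsg2* levels was not tested.

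All 4 plaque genes among the 10 were higher in every tumor than in every gland, whereas *Pkp2*, a plakophilin outside the 10, was not (log2 difference -0.47 ± 0.34). *Dsp* (chromosome 13, 38243197 to 38290446, plus strand), whose product ties the plaque to keratin filaments, had 25.2, 33.5 and 49.4 CPM in the glands and 1384, 1986 and 1905 CPM in the tumors. This was the highest CPM of the 10 genes in every tumor, and the log2 difference was 5.62 ± 0.25 (SE, n = 3), between 5.26 and 5.87 in the single mice. *Jup* (chromosome 11, 100230272 to 100259077, minus strand), which binds both desmosomal and classical cadherins and is a close relative of β-catenin, had 18.7, 27.6 and 28.0 CPM in the glands and 105, 138 and 201 CPM in the tumors. Its log2 difference of 2.53 ± 0.26 (SE, n = 3) was the smallest among the 8 upregulated genes.

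*Pkp1* (chromosome 1, 137767972 to 137815784, minus strand), the plakophilin of stratified epithelia, had 2.44, 3.47 and 6.16 CPM in the glands and 127, 186 and 159.7 CPM in the tumors. *Pkp3* (chromosome 7, 148264117 to 148276409, plus strand), found in simple and stratified epithelia alike, had 4.68, 2.15 and 5.47 CPM in the glands and 25.7, 30.7 and 28.8 CPM in the tumors. The log2 differences were 5.19 ± 0.30 for *Pkp1* and 2.73 ± 0.31 for *Pkp3* (SE, n = 3). *Pkp3* was the most even of the 10 genes among tumors, with an SD of 0.13 on the log2 scale.

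**Figure D2:**
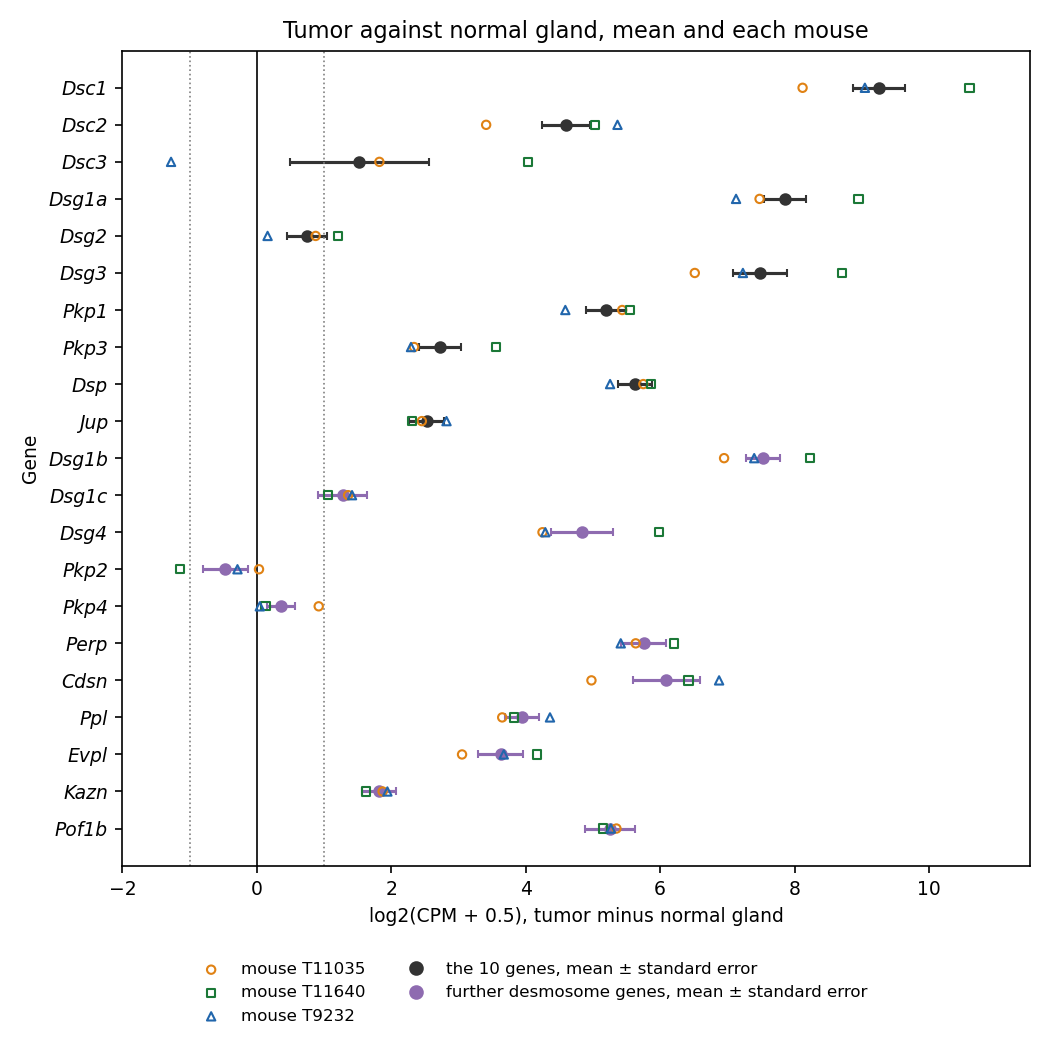
Difference between tumor and gland on log2(CPM + 0.5) for the 10 desmosomal genes (black) and 11 further desmosome genes (purple), as the mean ± SE, with each mouse as an open symbol and dotted lines at a 2-fold change. *Dsc1* has the largest mean difference (9.26), *Dsc3* the widest spread between mice (-1.28 to 4.03), and the means of *Dsg2*, *Pkp2* and *Pkp4* lie within the dotted lines, although mouse T11640 lies outside them for *Dsg2* (1.20) and *Pkp2* (-1.15).

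Tumors did not rank alike for every gene. T11640 was the highest tumor for 7 genes, T9232 for 2 (*Dsc2* and *Jup*) and T11035 for 1 (*Dsg2*). The lowest was T11035 for 7 genes, T9232 for 2 (*Dsc3* and *Dsg1a*) and T11640 for 1 (*Dsg2*). The summed epidermal differentiation markers were at 1356 CPM in T11035, 2402 in T9232 and 2620 in T11640. *Krt10* and *Krt1*, the largest contributors to that sum, were highest in T11640. Most of the single markers, *Lor* (20.1 CPM, against 10.5 in T11640) and *Flg2* among them, were highest in T9232. The part of these markers in the order of the tumors was not tested.

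Division by transcript length allows the genes to be compared with each other. In CPM per kb of the longest transcript, the mean order in tumors was *Dsc1* (239), *Dsp* (184), *Dsg1a* (75.6), *Dsg3* (59.2), *Jup* (46.2), *Dsc2* (40.3), *Pkp1* (33.7), *Dsc3* (31.2), *Dsg2* (15.1) and *Pkp3* (9.72). In the glands the order began with *Dsg2* (9.59), *Jup* (7.73), *Dsc3* (6.05) and *Dsp* (3.78), and *Dsc1* (0.275), *Dsg1a* (0.246) and *Dsg3* (0.245) came last. Neighbors in these orders, such as *Jup*, *Dsc2*, *Pkp1* and *Dsc3* in the tumors, had overlapping values between libraries.

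The composition of each cadherin family differed between tissues. Summed over desmocollins and desmogleins, the glands had 22.0, 10.6 and 22.0 CPM per kb and the tumors 407, 689 and 457. *Dsc3* made up 76.7% ± 0.545 of desmocollin CPM per kb in the glands (SD, n = 3) and 14.4, 13.3 and 0.809% in tumors T11035, T11640 and T9232. *Dsc1* went the other way, from 3.19% ± 1.11 to 76.6% ± 2.06. The *Dsc1* share was nearly the same in the 3 tumors, and in T9232 it was *Dsc2* that had a larger share (22.3%, against 11.2 and 8.25%).

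*Dsg2* made up 92.6% ± 2.81 of desmoglein CPM per kb in the glands and 7.59% ± 2.09 in the tumors (SD, n = 3). In its place the tumors had *Dsg1a* at 36.3%, *Dsg3* at 28.8% and *Dsg1b* at 24.7%. The level of *Dsg2* itself was not lower in tumors, while the family total went from between 6.06 and 15.1 CPM per kb to between 176 and 253. Shares of the plakophilins shifted in the same manner. *Pkp2*, the plakophilin of simple epithelia and heart, had 75.3% ± 12.7 in the glands and 11.0% ± 0.731 in the tumors. *Pkp1* had 8.75% ± 4.35 and 68.9% ± 2.15. The plakophilin total ran from 6.84 to 14.7 CPM per kb in the glands and from 40.8 to 56.1 in the tumors. The *Pkp2* level itself did not pass the test (log2 difference -0.47 ± 0.34). The *Pkp3* share was 15.9% ± 9.65 and 20.1% ± 1.43, a difference within the spread of the glands.

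**Figure D3:**
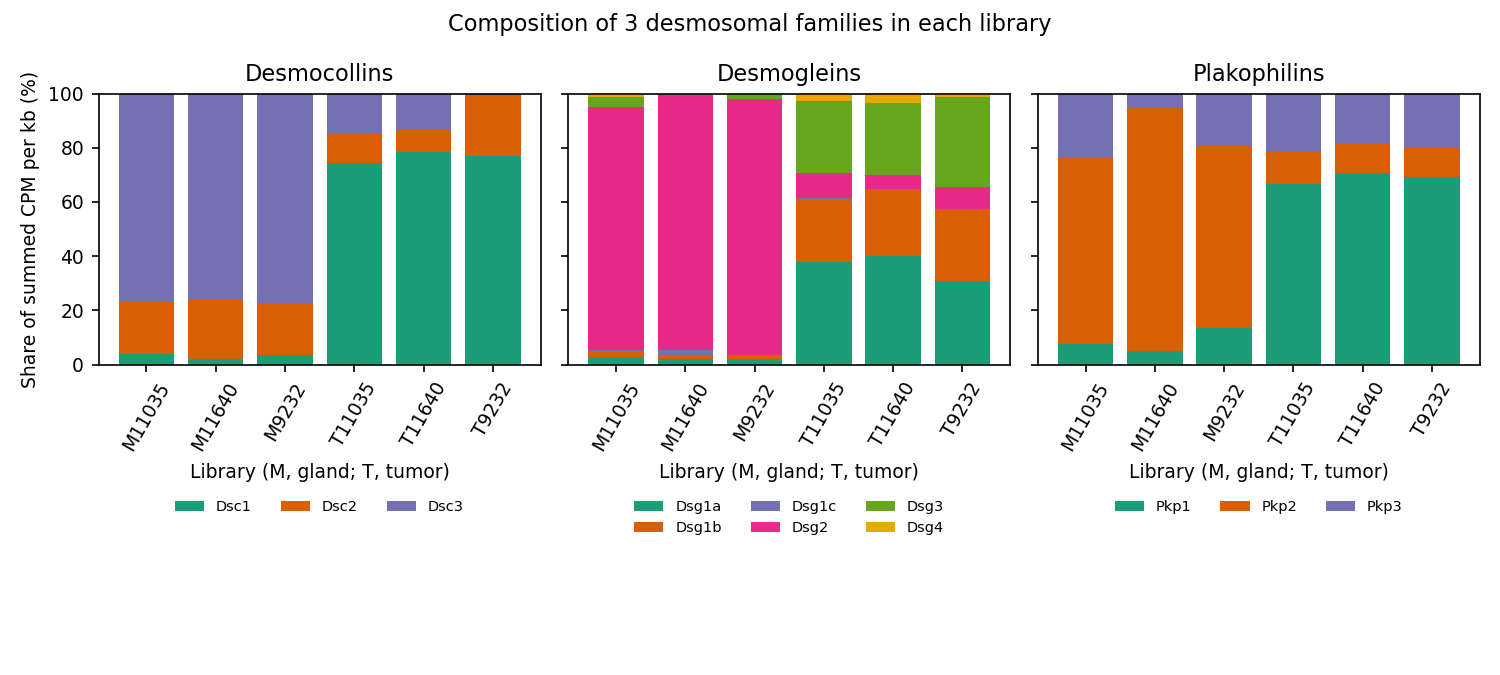
Share of each gene in the summed CPM per kb of its family (%), 1 bar per library (M, gland, and T, tumor). *Dsc3*, *Dsg2* and *Pkp2* fill most of the gland bars (76.7, 92.6 and 75.3% on average), and *Dsc1*, *Dsg1a* with *Dsg3* and *Dsg1b*, and *Pkp1* fill most of the tumor bars, with nearly no *Dsc3* in T9232 (0.809%).

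The desmosomal cadherin genes lie side by side on chromosome 18 in 644 kb that hold 9 genes of the table, in the order *Dsc3*, *Dsc2*, *Dsc1*, *Dsg1c*, *Dsg1a*, *Dsg1b*, *Dsg4*, *Dsg3* and *Dsg2*. The genes at the ends, *Dsc3* and *Dsg2*, were those 2 of the 10 whose tumor and gland levels overlapped, and they also had the highest gland CPM per kb of the 9. Between them the log2 difference was large except at *Dsg1c*. In mouse T9232 *Dsc3* was lower in the tumor by 1.28 while *Dsc2*, whose start lies 69.7 kb away, was higher by 5.37. *B4galt6*, the next gene beyond *Dsg2*, was higher by 1.36, 0.72 and 0.85 in mice T11035, T11640 and T9232.

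**Figure D4:**
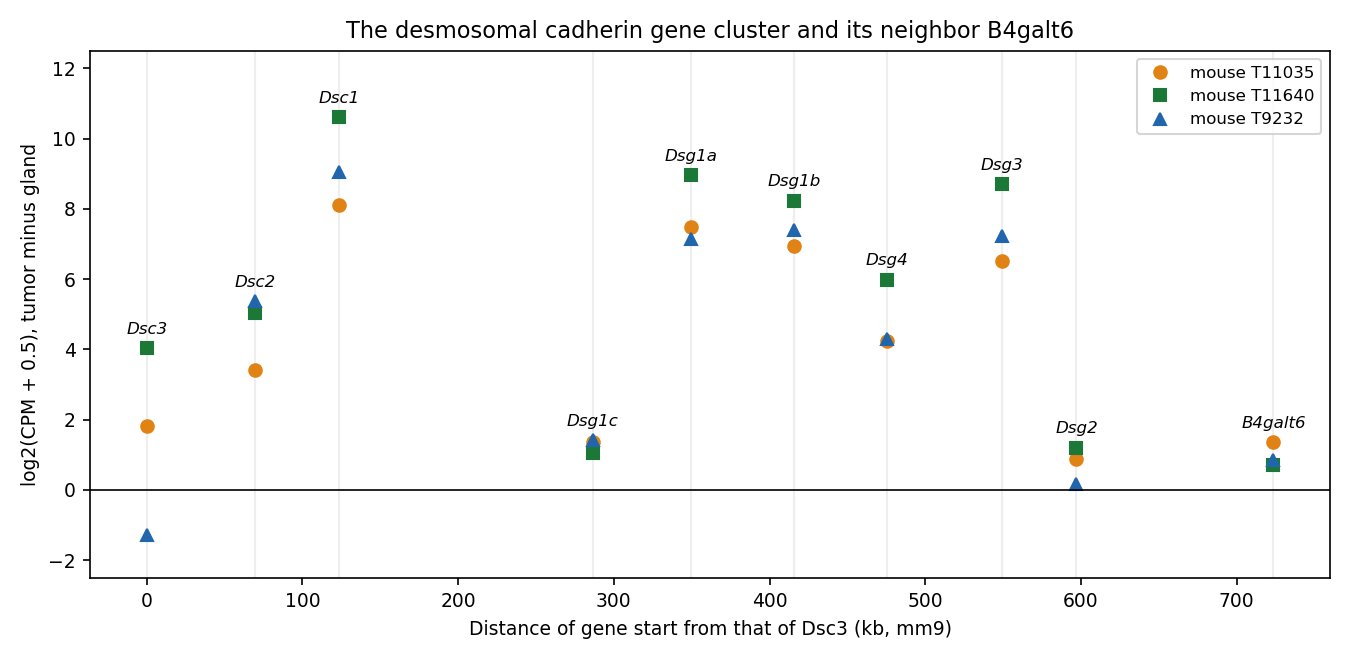
Difference between tumor and gland on log2(CPM + 0.5) in each mouse for the 9 desmosomal cadherin genes and *B4galt6*, placed by the distance of the gene start from that of *Dsc3* (kb, mm9). Differences peak at *Dsc1* (8.12 to 10.60), are small at *Dsg1c* (1.06 to 1.42) and *Dsg2* (0.16 to 1.20), and fall below 0 at *Dsc3* in mouse T9232 alone.

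Of the 11 epithelial markers, 8 were upregulated and 0 downregulated in the tumors, against 14.5% and 13.7% of all genes. As their sum was higher in the tumors, each desmosomal gene was also divided by an epithelial gene of the same library. Relative to *Epcam*, a surface marker of simple epithelium, which did not pass the test (151 ± 65.7 CPM in glands and 211 ± 15.4 in tumors, log2 difference 0.56 ± 0.26, limma adjusted *p* = 0.124), the median gene was 4.34 higher in tumors on the log2 scale, and 8 of 10 genes were higher in every mouse. Relative to *Cdh1*, the classical epithelial cadherin, the median was 2.57 (1.90, 2.77 and 2.98 in the 3 mice), and 6 genes were higher in every mouse. *Dsc1* (6.93 ± 1.25, SD over 3 mice), *Dsg1a* (5.53 ± 0.79) and *Dsg3* (5.15 ± 1.10) stood furthest above *Cdh1*. *Jup* (0.20 ± 0.60) and *Pkp3* (0.40 ± 0.61) kept pace with it within the spread of the mice, and *Dsg2* (-1.58 ± 0.24) fell behind it in all 3.

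*Dsg2* and *Epcam* differed alike between tissues, their log2 ratio moving by -0.01, 0.33 and 0.25 in the 3 mice. The ratio of *Dsp* to *Cdh1* was the most even of all, 3.23, 3.35 and 3.32 higher in tumors. Relative to *Krt5*, the basal keratin whose bovine promoter drives the transgene, the median turned to -0.58 (-2.02, 0.15 and 0.07 in the 3 mice), and 3 genes, *Dsc1*, *Dsg1a* and *Dsg3*, were higher in every mouse.

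**Figure D5:**
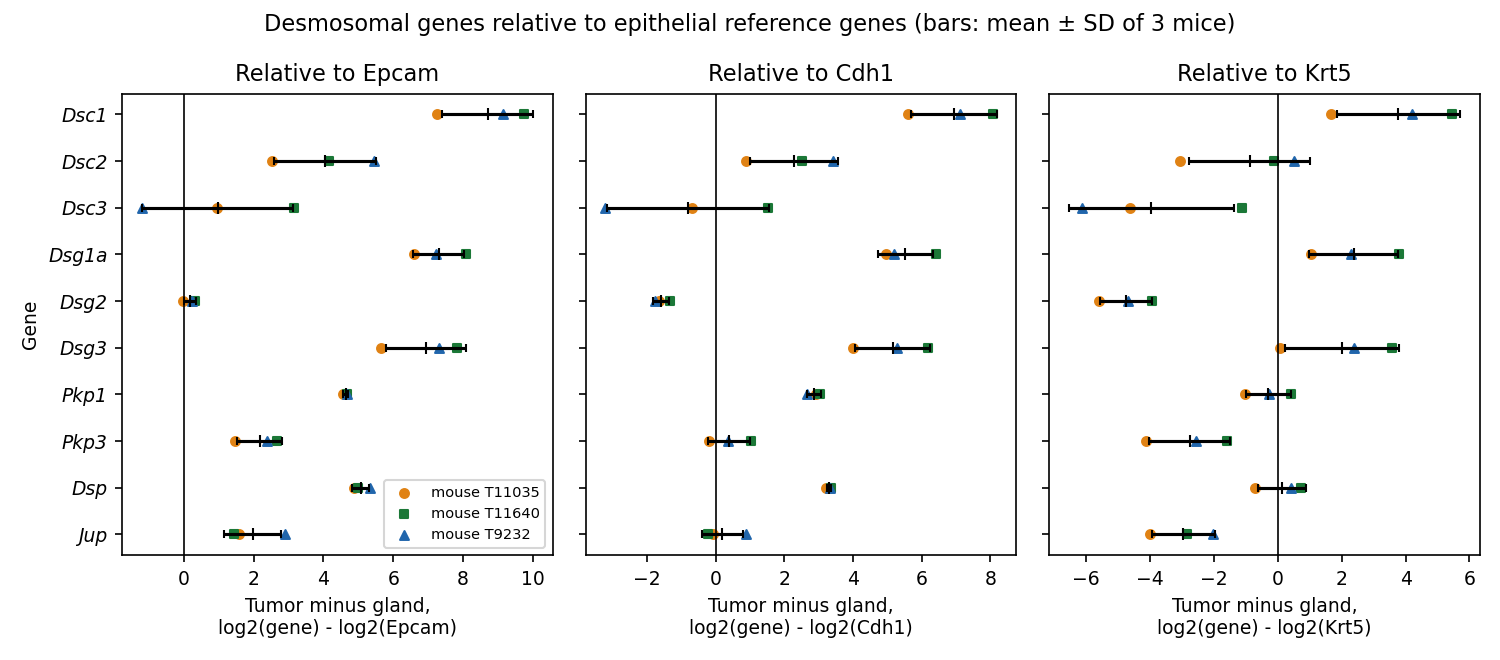
Change from gland to tumor in the log2 ratio of each desmosomal gene to *Epcam*, *Cdh1* and *Krt5* of the same library, with 1 symbol per mouse and bars for the mean ± SD of 3 mice. *Dsc1*, *Dsg1a* and *Dsg3* lie above 0 in all panels, *Dsg2* lies at 0.19 against *Epcam* and below 0 against *Cdh1* and *Krt5*, and *Dsc3* spans 0 in the first pair of panels.

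Further genes of the desmosome and the cornified junction mostly rose as well. This and the following lists were drawn up by function but with results of these libraries known, so their tests are not independent evidence of direction. Beside each count stand the shares over all genes, 14.5% upregulated and 13.7% downregulated. Of the 11 such genes, 9 were called higher and 0 lower, and their median log2 difference was 3.95. *Perp*, a membrane protein needed for desmosome assembly, rose from 20.1 ± 8.44 to 1102 ± 365 CPM (SD, n = 3, log2 difference 5.75 ± 0.33, limma adjusted *p* = 6.97e-06). *Dsg1b* rose from 0.609 ± 0.250 to 203 ± 43.3 CPM (7.53 ± 0.25, limma adjusted *p* = 6.49e-07), a level as uncertain as that of its near-identical copy *Dsg1a*.

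Cornified envelope partners of the plaque belonged to the same list. *Ppl* (periplakin) rose by 3.95 ± 0.25 and *Evpl* (envoplakin) by 3.63 ± 0.34 on the log2 scale, with limma adjusted *p* of 1.05e-05 and 6.96e-05. *Cdsn*, which encodes the corneodesmosome protein corneodesmosin, and *Dsg4*, the desmoglein of hair and upper epidermis, were at or under 3 fragments in every gland. They reached 43.3 ± 24.3 and 19.1 ± 11.1 CPM in the tumors, at least 71.1-fold and 31.3-fold higher than the highest level of 3 fragments among the gland libraries. *Pof1b*, an actin-binding protein of epithelial junctions, rose by 5.25 ± 0.38, and *Kazn* (kazrin, a periplakin partner) by 1.81 ± 0.25, with limma adjusted *p* of 1.95e-05 and 6.77e-04.

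*Pkp2* and *Pkp4* did not pass the test. *Pkp2* had 13.8, 38.7 and 19.2 CPM in the glands and 14.1, 17.2 and 15.6 in the tumors (log2 difference -0.47 ± 0.34, limma adjusted *p* = 0.300), and *Pkp4*, a plakophilin relative also found at adherens junctions, had 86.0 ± 15.8 and 111 ± 24.9 CPM (0.36 ± 0.21, adjusted *p* = 0.196). *Dsg1c* was called (1.28 ± 0.36, limma adjusted *p* = 0.0220) from very low levels of 0.279 CPM in glands and 1.36 in tumors, and lost its call with a pseudocount of 1, with DESeq2 and without gland M11035, gland M9232 or tumor T11640.

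Adherens junctions are the actin-linked neighbors of desmosomes. Of 16 of their genes, 8 were upregulated and 0 downregulated, and the median log2 difference was 1.41. *Cdh1* (E-cadherin) rose from 77.5 ± 32.6 to 374 ± 64.4 CPM (2.33 ± 0.27, limma adjusted *p* = 2.49e-04), and *Cdh3* (P-cadherin, of basal cells) had the highest difference of the list, from 3.61 ± 0.883 to 45.8 ± 6.82 CPM (3.51 ± 0.23, limma adjusted *p* = 1.36e-05). *Ctnnb1* (β-catenin) rose by 1.86 ± 0.23 (limma adjusted *p* = 3.68e-04). *Cdh2* (N-cadherin) was at 9.56 ± 1.31 and 9.59 ± 1.97 CPM, and *Cdh5* (VE-cadherin, of endothelium) had the lowest difference, -0.12 ± 0.24. The difference between the adherens junction genes and the desmosomal genes as lists was not tested.

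Keratins that desmosomes anchor were upregulated in 13 of 13 cases (median log2 difference 5.75). *Krt6b*, a keratin of stressed epidermis, rose most (9.52 ± 0.23, limma adjusted *p* = 2.13e-07), and the basal pair *Krt5* and *Krt14* rose by 5.48 ± 0.40 and 5.75 ± 0.38. Of the simple keratins, *Krt8* rose by 1.74 ± 0.36 and *Krt19*, the lowest of the list, by 1.19 ± 0.26 (0.99, just under the threshold, without gland M11035).

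Among 10 genes for proteases and inhibitors that act on desmosomal proteins, 5 were upregulated and 0 downregulated (median 1.32). *Klk7*, a kallikrein that cuts corneodesmosomes, was the highest, from 1.13 ± 0.302 to 655 ± 403 CPM (8.44 ± 0.46, limma adjusted *p* = 5.15e-06), and the sheddase gene *Adam15* the lowest (-0.11 ± 0.22). Of 15 epithelial and squamous transcription factors, 11 were upregulated and 1 downregulated (median 1.76). *Grhl3*, a grainyhead factor of the epidermal barrier, rose most (5.97 ± 0.26, limma adjusted *p* = 1.76e-06), and its relative *Grhl1*, known to activate *Dsg1* in skin, rose by 2.63 ± 0.18 (limma adjusted *p* = 1.41e-05). *Trp63* (p63, of basal cells) rose by 3.41 ± 0.29 and *Klf4* by 2.62 ± 0.35, and *Zeb1*, a repressor of epithelial genes, was the downregulated member (-1.17 ± 0.14, limma adjusted *p* = 2.66e-04). The 11 upregulated genes included *Snai1*, which the study ties to the epithelial-mesenchymal transition, and *Snai2*. *Snai1* rose by 1.60 ± 0.44 from a low level (0.469 to 2.53 CPM) and *Snai2* by 1.69 ± 0.29, with limma adjusted *p* of 0.0197 and 0.00196. *Zeb2* (-0.24 ± 0.25) and *Twist1* (0.52 ± 0.36) were not called.

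Markers of cells that carry particular desmosomes differed between the tissues in both directions, and their part in the desmosomal results was not tested. All 9 epidermal differentiation markers (2 of them, *Krt1* and *Krt10*, also among the keratins above) were upregulated, with summed levels of 6.51 to 9.41 CPM in glands and 1356 to 2620 in tumors, and *Lor* and *Flg2* at 0 in every gland. All 8 hair follicle markers were upregulated (7 when the fit paired the tissues of a mouse, which left *Hoxc13* just past the threshold at a limma adjusted *p* of 0.0505), from 2.46 to 6.51 CPM in glands to 1022 to 2139 in tumors, with *Krt35* and *Hoxc13* at 0 in every gland. Of 10 luminal markers 9 were downregulated (1648 to 21002 CPM in glands, 98.7 to 375 in tumors, with *Lalba* at 0 in every tumor), and of 6 contractile markers 3 (353 to 744 and 194 to 239 CPM). The casein *Csn2* alone had 14121 CPM in gland M9232, whose luminal sum was 21002. Of the markers not called, *Gata3* (0.66 ± 0.32), *Acta2* (0.49 ± 0.48) and *Tagln* (0.82 ± 0.21) were higher in tumors, and *Cnn1* (-0.92 ± 0.51) was lower.

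Markers of other cell types also differed in part, where 14.5% of all genes were upregulated and 13.7% downregulated. All 10 fat cell markers and 4 of 6 immune markers (1184 to 1978 CPM in glands, 519.9 to 701 in tumors) were downregulated, and 3 of 6 fibroblast markers were upregulated (917 to 3616 and 8436 to 9059 CPM). Endothelial markers were downregulated in 2 of 6 cases (338 to 465 and 196 to 274 CPM). Skeletal muscle markers, 3 of 7 downregulated (4 with the pairing, which added *Myh4*), were uneven among the glands, at 4222, 1619 and 8.75 CPM in M11035, M11640 and M9232, and at 7.73 to 15.4 CPM in the tumors.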

How the data were processed

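RNA-Seq data from 3 tumors and 3 adjacent glands of the same 3 mice were used as deposited. The authors prepared libraries with the Ovation RNA-Seq System V2, mapped read pairs to mm9 with TopHat2 (2.0.3), counted fragments per RefSeq gene with HTSeq (0.5.3p9), removed genes with fewer than 10 fragments over all libraries, and deposited CPM from edgeR (3.6.1) on the effective library size, a signal scaled by library. Duplicate removal is not stated, so fragments may not be independent molecules. Every value was a whole number of fragments (within 0.01) after division by the library's step.

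The 10 genes and all lists were chosen with earlier results of these data known. The test was limma (3.58.1, R 4.3.3, trend) on log2(CPM + 0.5) over all 6 libraries, and two-sided p-values were adjusted for 15280 genes by Benjamini-Hochberg. A fold on this scale understates the change of low genes. The SE of a log2 difference is limma's moderated standard error from this fit, which also draws on the variance of the other genes. Alternatives were edgeR (4.0.16) and DESeq2 (1.42.0) on recovered fragments, other pseudocounts and filters, a mouse block, and each library left out. Scripts were tested on simulated data. Same-numbered libraries come from the same mouse and so are paired by design (correlations of their deviations from group means 0.11, 0.15 and 0.02 over 14712 genes), but the study's methods state no mouse term and the fit has none.

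Named genes were the 10 desmosomal genes, 11 further desmosome genes, the highest and lowest gene of each other functional list, and 11 preset genes. Up to 3 markers per cell type and the 5 genes that correlated best with the scaled mean of the 10 were also named. *B4galt6*, *Csn1s1*, *Csn3*, *Snai1*, *Snai2*, *Twist1* and *Zeb2* were chosen after their values were seen. Lengths and positions are from GENCODE vM1 (mm9). Shares within a family divide CPM by the longest transcript and leave out *Pkp4*.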

Additional observations from a re-analysis of the deposited data

How the results depend on the processing

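Counts of DEGs kept within 1.5 times their value under all 16 alternatives. With the replicate block, which pairs the tissues of a mouse, 8 desmosomal genes and 4298 of all genes were called, against 8 and 4309 without it, and the block changed no call among the 38 named genes that were refitted. Among all listed genes it ended the call of *Hoxc13* and added *Myh4*. On recovered fragments, edgeR called 4462 genes and DESeq2 4436. The number of desmosomal genes called was 8 to 9 when 1 library was left out, and the median log2 difference was 4.73 to 5.11. Of 606 values over named genes and alternatives, 591 kept their direction and call, 6 lost the call (*Dsg1c* and *Krt19*), 2 gained it (*Dsc3* without T9232, *Dsg2* without M9232) and 7 turned in sign, all of them near 0 and never called. With 1 library left out, *Cdh5* ran from -0.32 to 0.065 (above 0 without M11640, at 0.055, or T11035), *Adam15* from -0.22 to 0.046 (above 0 without M11640) and *Cdh2* from -0.11 to 0.16 (above 0 without M9232, at 0.088, or T9232), and *Cdh2* was also at 0.0038 with DESeq2 and 0.0047 with edgeR and DESeq2 size factors. The median of the desmosomal genes relative to *Cdh1* (2.57) depended on the reference gene: it was 4.34 with *Epcam*, 3.23 with the median of the epithelial markers and -0.58 with *Krt5*, which itself rose by 5.48. Union exon length in place of the longest transcript moved the gland share of *Dsc3* to 78.5%, that of *Dsg1a* to 3.26%, and the tumor shares of *Dsg2*, *Pkp1* and *Pkp2* to 5.49, 74.2 and 6.98%. Gland levels of *Dsc1*, *Dsg1a* and *Dsg3* rest on 18 to 26 fragments over the 3 libraries, which limits the precision of their fold changes.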

Other observations

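Among 14702 genes averaging 1 CPM or more, those most like the mean of the 10 desmosomal genes over the 6 libraries were *Ptbp1* (Pearson r = 0.9997), *Tm7sf4* (0.9992), *Ctps* (0.9985), *Vangl2* (0.9976) and *Slc30a2* (0.9975). This is a description over 6 points that share 2 tissues and 3 mice. *Ptbp1*, a splicing regulator, had 47.0, 40.5 and 48.8 CPM in the glands and 89.1, 93.8 and 88.0 CPM in the tumors.

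After *Dsc3*, the genes furthest below the other tumors in T9232 were the caseins *Csn1s1* (77.5 CPM, against 568 and 335, 2.11 lower on the log2 scale) and *Csn3* (27.4 CPM, against 118 and 89.6). In the glands *Csn1s1* was at 989, 2173 and 20415 CPM in M11035, M11640 and M9232. The part of milk-producing cells in the *Dsc3* levels was not tested.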
